A study of Arabidopsis thaliana with 15 samples.

Results

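The genes described here encode vacuolar cysteine proteases of *Arabidopsis thaliana* and the enzymes that process vacuolar proteins. They are 10 of the 34665 genes on the array, where a gene is a locus with a matched probe or a probe without a matched locus. The members were taken by locus and not by a cutoff on their signals, but earlier results of these data were known. They are the 6 papain-like proteases *SAG12* (AT5G45890), *RD21A* (AT1G47128), *RD21B* (AT5G43060), *RD19* (AT4G39090), *AALP*, also called *SAG2* (AT5G60360), and *CATHB3* (AT4G01610), and the 4 vacuolar processing enzymes *alpha-VPE* (AT2G25940), *beta-VPE* (AT1G62710), *gamma-VPE* (AT4G32940) and *delta-VPE* (AT3G20210).

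Papain-like cysteine proteases are made as inactive precursors with a signal peptide and an inhibitory prodomain, pass through the secretory pathway and become active when the prodomain is removed in acidic compartments such as the lytic vacuole. They take part in protein breakdown in senescing leaves, in defence and in programmed cell death. Vacuolar processing enzymes belong to another family, the legumains, which cut after asparagine or aspartate and mature other vacuolar proteins. Their caspase-like activity is known for its part in vacuolar collapse during cell death. In textbooks *alpha-VPE* and *gamma-VPE* are the forms of vegetative organs, *beta-VPE* is the form that matures seed storage proteins, and *delta-VPE* acts in the seed coat.

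The data come from 15 one-color Agilent arrays, 3 for each of 5 groups, all in the Col-0 background. At 50 days after sowing (DAS), leaves of untreated soil-grown WT plants were compared with leaves of OX plants, which carry *ANAC046*, a NAC transcription factor gene, under the constitutive 35S promoter. At 5 days after the start of dark treatment (DAD), WT plants were compared with KO plants, a single transposon insertion line of *ANAC046*, and with SRDX plants, in which the 35S promoter drives *ANAC046* fused to the SRDX repression domain. The age of the dark-treated plants was not in the array labels, which name foil-covered seedlings grown on agar. The Methods name darkened leaves, and they do give the age at which plants were moved into the dark. Of 8 root markers, those well above background on every array of the group were 2 in WT and 1 in OX at 50 DAS, and 5 in WT, 4 in SRDX and 3 in KO at 5 DAD. Their summed level was 3.49 to 5.03 in WT, 1.68 to 3.70 in SRDX and 1.39 to 2.02 in KO at 5 DAD, and the part of root tissue in the results was not tested. Each OX and SRDX array came from an independent line, called line 1, 2 or 3 after its replicate number. The Methods name 3 biological replicates, and do not say whether the WT and KO arrays came from separate plants. The p-values thus measure the spread between these samples only. All 7 leaf markers were well above background on every array. Their summed level, in multiples of the array median, was 7750 to 8620 at 50 DAS, 998 to 1100 in WT at 5 DAD and 1250 to 1730 in KO and SRDX.

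Each value is a log2 signal, where 0 is the median of the array after quantile normalization and a difference of 1 is a doubling. A probe's brightness depends on its sequence, so levels are compared between groups and not between genes. Where a gene had several probes, the brightest stood for it. A gene was tested with limma where its probe was well above background, a flag of the scanner software, on all 3 arrays of at least 1 group of the experiment. The limit was a p-value of 0.15 after Benjamini-Hochberg adjustment over all genes tested, and a gene below it is said to be past the limit. The Methods set a false discovery rate of 0.15 too, but calculated it with Storey's q-values, which are given here as an alternative. In such bulk samples, a change in the share of expressing cells and a change in RNA per cell cannot be told apart.

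The share of spots well above background ranged from 62.2 to 68.7% at 50 DAS and from 67.0 to 80.9% at 5 DAD, where the KO arrays and SRDX line 3 had the lowest shares. WT arrays shared no slide with other genotypes, so in each comparison with WT the slide and the genotype cannot be told apart. SRDX line 3 and the KO arrays shared a slide. *ANAC046* (AT3G04060) itself had log2 signals of 0.42, 0.54 and 0.77 in WT at 50 DAS. In OX they were 2.64, 8.95 and 9.01, so line 1 lay far below lines 2 and 3. In WT at 5 DAD they were 5.11, 5.35 and 5.22. In SRDX, where the probe also reads the transgene, they were 6.29, 6.42 and 6.29. On the 3 KO arrays the probe never rose well above background, and there the signal was at least 272-fold lower than in WT (limma, adjusted p = 1.22e-08). For this bound and those below, the probe's signal on each dim array was raised to that of the dimmest probe that passed the background flag on the same array, if it lay under it.

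At 50 DAS, OX lines 2 and 3 lay above all WT arrays for every member except *delta-VPE*, which stayed near background, while line 1 lay near WT for most members. All 7 tested members had a higher mean in OX, and none passed the limit, which 0.0921% of all genes passed as higher. Those past an unadjusted p-value of 0.05 were 2 members, *RD21B* and *CATHB3*, both higher, against 9.30% of all genes. With q-values after Storey, which the Methods name, 6 were higher, against 24.7%. The median log2 change of the 7 members was 0.82, beside −0.08 over all genes tested. Lines 2 and 3 lay above all 3 WT arrays for 7 of the 7 members, as they did for 34.7 and 40.9% of all genes. Line 1 did so for 1 member, *RD21B*, and lay within the WT range for 5. Leaving out line 1 changed the result, with the same 7 members all past the limit as higher, beside 25.8% of all genes higher and 31.2% lower. The choice to leave it out follows no label, and the comparison without it rests on 2 lines. The changes without it ran from 0.44 for *AALP* (limma, adjusted p = 0.0906) to 1.98 for *beta-VPE* (0.0279), with 1.96 for *CATHB3* (0.00138). *SAG12* and *alpha-VPE* entered that test only because both remaining OX arrays were well above background, against 0 and 1 of the 3 WT arrays, so their calls as higher (adjusted p = 0.0129 and 0.00429) came through the group where they were high. For *SAG12* the mean of lines 2 and 3 was at least 42.8-fold above WT.

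At 5 DAD, 5 of these genes were lower in KO, in SRDX or in both. In KO, 4 of 8 tested members passed the limit as lower and none as higher, beside 14.2% of all genes lower and 18.1% higher. These were *alpha-VPE*, *RD21A*, *RD21B* and *SAG12*. In SRDX, 4 of 8 were past the limit as lower and none as higher, beside 8.80% of all genes lower and 11.6% higher. These were *alpha-VPE*, *RD21A*, *RD21B* and *gamma-VPE*. The median change was −0.55 in KO, beside 0.03 over all genes, and −0.72 in SRDX, beside −0.04, and became −0.33 and −0.46 under scaling to the 75th percentile. The means of all 8 members were below WT in both genotypes, but under scaling to the 75th percentile 4 of them (*RD19*, *AALP*, *CATHB3* and *gamma-VPE*) were above WT in KO and *CATHB3* was above WT in SRDX. With that scaling, 14.7% of all genes were higher and 21.6% lower in KO, the median over all genes was −0.08, and the 4 calls in KO were kept. All 3 arrays lay below all 3 WT arrays for 3 members in KO, beside 20.6% of all genes, and for 5 members in SRDX, beside 15.2%. Both comparisons use the same 3 WT arrays.

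**Figure D1:**
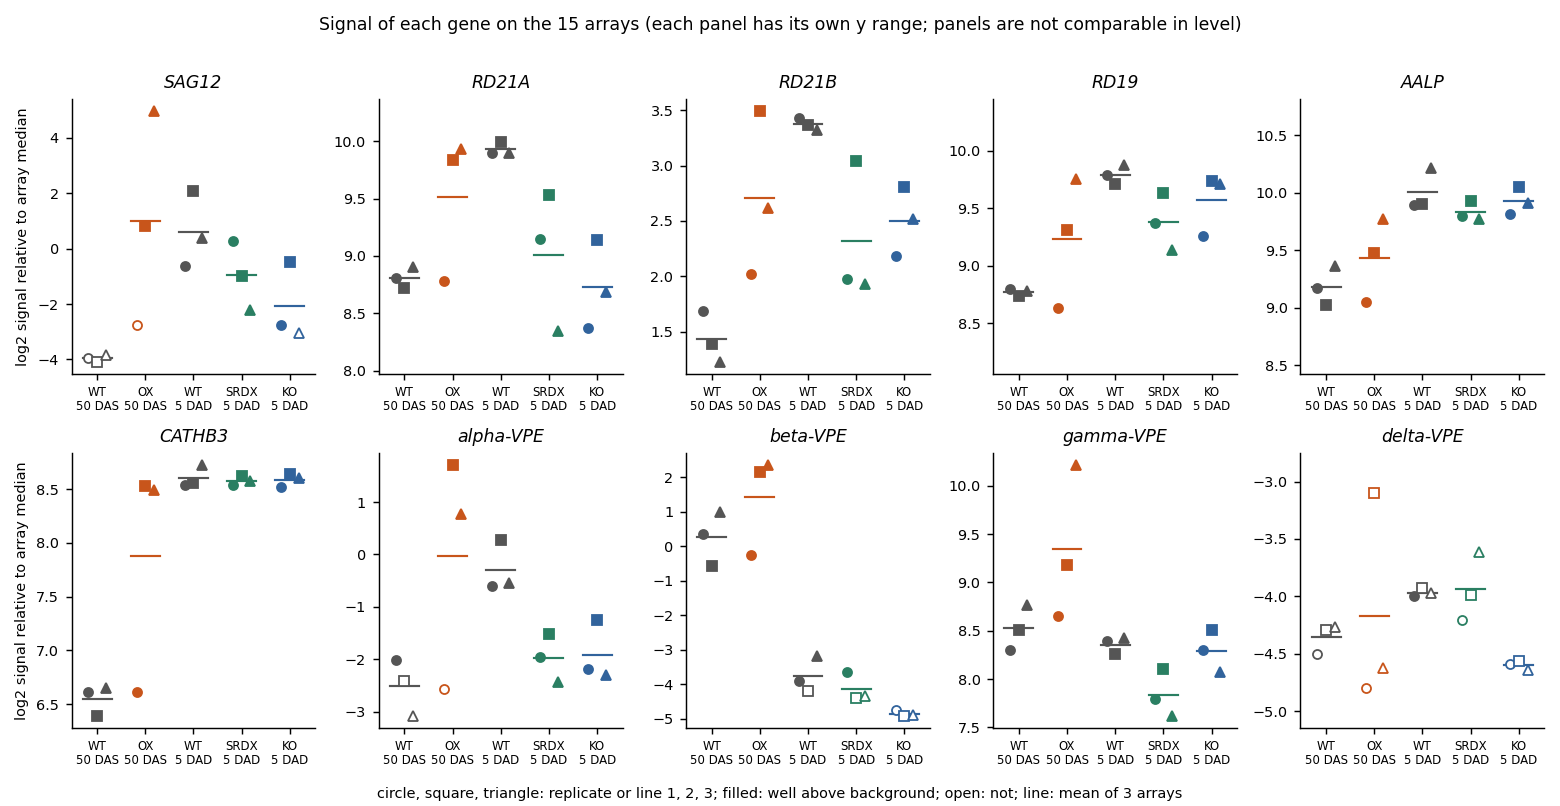
Log2 signal relative to the array median (y axis, own range in each panel) of the 10 genes on the 15 arrays in 5 groups (x axis); each marker is an array, filled where the probe was well above background, and lines are means of 3 arrays. *CATHB3* lies between 8.52 and 8.72 on all 9 arrays at 5 DAD, while *alpha-VPE* has all KO and SRDX arrays below all WT arrays.

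*SAG12* encodes the protease most used as a marker of developmental leaf senescence and lies in small senescence-associated vacuoles. In WT at 50 DAS its signals were −3.95, −4.08 and −3.85, and none was well above background. In OX they were −2.74, 0.82 and 4.95 in lines 1, 2 and 3. Only lines 2 and 3 were well above background, which left the gene untested at 50 DAS. The mean of the 3 OX lines was at least 11.7-fold above WT, with at least 10.2-fold in line 2 and at least 179-fold in line 3. The SD over the OX lines was 3.85, the largest of the 10 members.
At 5 DAD all 3 WT arrays were well above background, at −0.63, 2.09 and 0.37. In KO its signals were −2.75, −0.48 and −3.03, the last not well above background. WT and KO overlapped at 1 array of each, and the mean fell by 2.70 (standard error 0.92, limma, adjusted p = 0.0829). In SRDX the signals were 0.27, −0.98 and −2.20, and the change of −1.58 was within the spread (limma, adjusted p = 0.322, 95% interval −3.68 to 0.52). The change in KO ran from −3.14 under 75th percentile scaling to −1.48 with normexp, a model-based background correction (adjusted p = 0.107), and −1.38 in the deposited table of normalized values, and from −3.5 to −1.96 with an array left out. The call in KO was lost with the slide as a random block (adjusted p = 0.169), in a single fit of all 15 arrays (0.239) and when WT replicate 2 or 3 or KO replicate 1 or 3 was left out (adjusted p = 0.172 to 0.25). A second, dimmer probe of the gene differed by −2.85 in KO and −1.43 in SRDX.

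*RD21A* encodes a major protease of leaf vacuoles that carries a granulin domain and was first found as a drought-induced transcript. Its signals were 8.81, 8.72 and 8.90 in WT and 8.78, 9.84 and 9.93 in OX at 50 DAS. Line 1 lay among the WT arrays and lines 2 and 3 above them, and the change of 0.70 did not pass the limit (standard error 0.32, limma, adjusted p = 0.237). At 5 DAD the WT arrays were close together at 9.90, 9.99 and 9.90. KO had 8.37, 9.14 and 8.69, and every KO array lay below every WT array. The decrease was 2.29-fold (log2 change −1.20, standard error 0.31, limma, adjusted p = 0.0414), and it stayed past the limit with each of the 9 arrays left out and, at −0.73, under 75th percentile scaling (0.0757). SRDX had 9.15, 9.53 and 8.35, also all below WT, with a decrease of 1.89-fold (log2 change −0.92, standard error 0.31, limma, adjusted p = 0.106). That call did not hold when SRDX line 3 or any 1 of the WT arrays was left out (adjusted p = 0.233 to 0.280), and under 75th percentile scaling (0.167).

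*RD21B*, the closest relative of *RD21A* in the list, was measured by 1 probe. Its signals at 50 DAS were 1.69, 1.39 and 1.23 in WT and 2.02, 3.49 and 2.62 in OX. It was the only tested member with all 3 OX lines above all 3 WT arrays, as 12.9% of all genes were. The change of 1.28 (standard error 0.38) had an unadjusted p-value of 0.0157 in limma and did not pass the limit over all genes (adjusted p = 0.193).
At 5 DAD the signals were 3.43, 3.37 and 3.32 in WT, 2.18, 2.81 and 2.52 in KO and 1.98, 3.04 and 1.93 in SRDX. All 6 loss-of-function arrays lay below the WT arrays, which had an SD of 0.05. The decreases were 1.83-fold in KO (log2 change −0.87, limma, adjusted p = 0.0879) and 2.08-fold in SRDX (log2 change −1.05, limma, adjusted p = 0.0728). In KO the call did not hold when KO replicate 1 or 3 was left out, or any 1 of the WT arrays (adjusted p = 0.187 to 0.212) or with the slide as a random block (0.176). In SRDX it did not hold when line 3 or any 1 of the WT arrays was left out (adjusted p = 0.182 to 0.225).

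*RD19* encodes a cathepsin F-like protease of the vacuole that responds to dehydration. Its signals were 8.80, 8.74 and 8.78 in WT and 8.63, 9.31 and 9.76 in OX at 50 DAS. Line 1 was below the 3 WT arrays and lines 2 and 3 above them, and the change of 0.46 did not pass the limit (limma, adjusted p = 0.331). At 5 DAD the signals were 9.79, 9.71 and 9.88 in WT, 9.26, 9.74 and 9.71 in KO and 9.37, 9.63 and 9.14 in SRDX. The KO arrays overlapped with WT, and the SRDX arrays were all below it. Neither the change of −0.23 in KO (95% interval −0.67 to 0.21) nor that of −0.42 in SRDX (−0.86 to 0.02) passed the limit (limma, adjusted p = 0.439 and 0.217).

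*AALP* encodes the aleurain-like, cathepsin H-type protease that is a standard marker of the lytic vacuole. At 50 DAS its signals were 9.17, 9.02 and 9.36 in WT and 9.05, 9.48 and 9.77 in OX. At 5 DAD they were 9.89, 9.90 and 10.22 in WT, 9.82, 10.05 and 9.91 in KO and 9.80, 9.93 and 9.77 in SRDX. Groups overlapped within both experiments, and no change passed the limit. The 95% intervals were −0.28 to 0.79 in OX, −0.43 to 0.27 in KO and −0.52 to 0.18 in SRDX (limma, adjusted p = 0.460, 0.752 and 0.525).

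*CATHB3* encodes a cathepsin B-like protease with a known part in defence-related cell death. Its signals at 50 DAS were 6.61, 6.39 and 6.65 in WT and 6.61, 8.53 and 8.49 in OX. Line 1 lay among the WT arrays while lines 2 and 3 were 1.98 and 1.94 above the WT mean. Over the 3 lines the change of 1.33 (standard error 0.53) had an unadjusted p-value of 0.0465 and an adjusted p-value of 0.213 in limma. At 5 DAD all 9 arrays lay between 8.52 and 8.72. The changes were −0.02 in KO (95% interval −0.33 to 0.28) and −0.03 in SRDX (−0.33 to 0.27), the narrowest intervals of the 8 tested members, and both signs turned under 75th percentile scaling.

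*alpha-VPE*, measured by 1 probe, was past the limit in both KO and SRDX. The signals were −0.61, 0.28 and −0.55 in WT, −2.19, −1.25 and −2.30 in KO and −1.96, −1.52 and −2.44 in SRDX. All 6 loss-of-function arrays lay below the 3 WT arrays. The decreases were 3.08-fold in KO (log2 change −1.62, standard error 0.37, limma, adjusted p = 0.0312) and 3.20-fold in SRDX (log2 change −1.68, standard error 0.37, limma, adjusted p = 0.0383). With normexp the changes were −0.84 and −0.87, and in the deposited table −0.82 and −0.85, all past the limit (adjusted p = 0.0296 to 0.0492). The call in KO was kept with each of the 9 arrays left out, and that in SRDX was lost without WT replicate 2 (adjusted p = 0.157). Both were lost in a single fit of all 15 arrays (adjusted p = 0.203 and 0.243), which pools the spread of the OX lines with that of the other groups.
At 50 DAS the signals were −2.02, −2.41 and −3.08 in WT, of which 1 was well above background, and −2.57, 1.70 and 0.77 in OX, of which lines 2 and 3 were. The gene was therefore not tested. Lines 2 and 3 were above the 3 WT arrays while line 1 was among them.

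*gamma-VPE* encodes the main processing enzyme of leaves, of the family with a known part in cell death. At 50 DAS its signals were 8.30, 8.51 and 8.77 in WT and 8.65, 9.18 and 10.21 in OX. The change of 0.82 (standard error 0.41) did not pass the limit (limma, adjusted p = 0.255). At 5 DAD they were 8.39, 8.26 and 8.42 in WT, 8.30, 8.51 and 8.07 in KO and 7.79, 8.10 and 7.62 in SRDX. The KO arrays overlapped with WT, with a change of −0.06 (95% interval −0.48 to 0.35, limma, adjusted p = 0.834). The SRDX arrays were all below WT, with a 1.44-fold decrease (log2 change −0.52, standard error 0.18, limma, adjusted p = 0.117). That call did not hold when SRDX line 1 or 3 was left out, or any 1 of the WT arrays (adjusted p = 0.189 to 0.329), with the slide as a random block (0.170), in a single fit of all 15 arrays (0.348), with the dimmest probe (0.183) and under 75th percentile scaling (0.225). The difference of SRDX from KO was −0.46 (95% interval −0.87 to −0.04, limma, adjusted p = 0.375).

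*beta-VPE* had its highest signals at 50 DAS, where all 6 arrays were well above background. They were 0.36, −0.56 and 0.99 in WT and −0.26, 2.16 and 2.34 in OX, and the change of 1.15 was within the spread (standard error 0.78, limma, adjusted p = 0.362). At 5 DAD the signal was well above background on 2 WT arrays (−3.91 and −3.18), 1 SRDX array (−3.64) and no KO array, and the gene was not tested there. Of 4 seed markers, *CRA1* and *SESA1* were well above background on no array and *CRU3* on some WT arrays at 5 DAD only. *OLEO1*, the fourth, was well above it on all 3 WT arrays at 5 DAD and on no KO array, and was past the limit as lower in KO (limma, adjusted p = 0.0301) and not in SRDX (0.813). *OLEO1* entered that test only through the WT arrays, so its call as lower came through the group where it was high. The summed level of the 4 was 0.17 to 0.302 in WT and 0.192 to 0.431 in OX at 50 DAS, and 0.286 to 0.321 in WT, 0.174 to 0.304 in KO and 0.285 to 0.377 in SRDX at 5 DAD. Its part in the results was not tested.
*delta-VPE* was well above background on only 1 of the 15 arrays, WT replicate 1 at 5 DAD, at −4.0. Its second probe never was. The gene was not tested in any comparison.

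**Figure D2:**
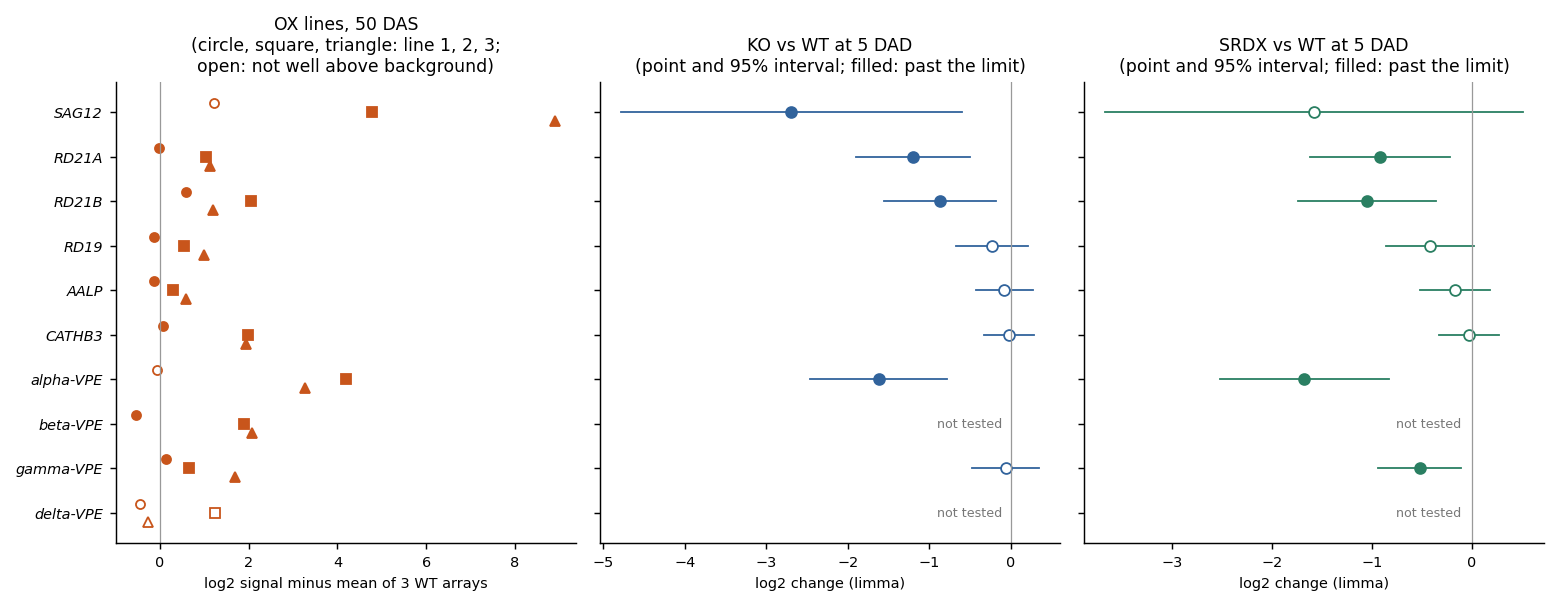
Change of each gene (rows) in log2 units (x axes): in the OX panel, each line's signal minus the WT mean at 50 DAS; in the KO and SRDX panels, limma's change from WT at 5 DAD with its 95% interval, filled where past the limit. OX line 1 lies near 0 for most genes while lines 2 and 3 lie above it, and 4 genes are filled as lower in each of KO and SRDX, while the changes of *RD19*, *AALP*, *CATHB3* and *gamma-VPE* in KO turn above 0 under 75th percentile scaling.

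The direct comparison of SRDX with KO asks whether the dominant repressor and the insertion line differ. None of the 8 tested members passed the limit, beside 0.267% of all genes, and at an unadjusted p-value under 0.05 only *gamma-VPE* was lower in SRDX, beside 7.16% of all genes in this direction. With Storey's q-values the count was 0 as well, beside 0.444% of all genes higher and 0.566% lower. The intervals were wide for *SAG12* (1.12, 95% interval −0.98 to 3.21) and *alpha-VPE* (−0.06, −0.90 to 0.79). They were narrower for *RD21A* (0.27, −0.43 to 0.98), *RD21B* (−0.18, −0.87 to 0.51), *RD19* (−0.19, −0.63 to 0.25), *AALP* (−0.09, −0.45 to 0.26) and *CATHB3* (−0.01, −0.31 to 0.30). On the slide that SRDX line 3 shared with the KO arrays, this line lay below the KO mean by 0.67 for *gamma-VPE*, 0.57 for *RD21B* and 0.52 for *alpha-VPE*, with no replicate. It lay below it by 0.43 for *RD19*, 0.39 for *RD21A*, 0.15 for *AALP*, 0.12 for *SAG12* and 0.02 for *CATHB3*. For *beta-VPE* and *delta-VPE*, not well above background on these arrays, it lay above by 0.51 and 0.99.

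Within the loss-of-function groups, the same arrays stood nearest to WT for most members. KO replicate 2 was the highest of the 3 KO arrays for 8 of 8 tested members, as it was for 39.8% of all genes tested. SRDX line 2 was the highest of the 3 SRDX lines for 7 of 8, the exception being *SAG12*, as it was for 40.6% of all genes. SRDX line 3 was the lowest for 7 of 8, the exception being *CATHB3*, as it was for 32.3% of all genes. The members share these arrays and are not replicates of a genotype.

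For 5 members with several bright probes, the probes of a gene could be compared. Those of *RD21A* had the same sign, with differences of −1.20 to −1.83 over 5 probes in KO, −0.92 to −1.10 in SRDX and 0.70 to 1.05 in OX. For *AALP* the probes differed in KO. Its brightest probe differed by −0.08 and its dimmest by −1.04, where the 3 KO arrays stood at 4.59, 3.66 and 3.69 against a WT mean of 5.02. The same order was seen in KO for *RD19* (−0.23 for the brightest and −1.05 for the dimmest of 4 probes) and *gamma-VPE* (−0.06 and −0.80). All 3 dim probes passed the limit (limma, adjusted p = 0.0155, 0.0387 and 0.0722 for *RD19*, *AALP* and *gamma-VPE*). The dimmest probe was chosen after seeing the data. The share of all genes past the limit with dimmest probes is not given, so these calls describe the 3 probes alone. In SRDX the 4 probes of *AALP* lay between −0.06 and −0.26 and those of *gamma-VPE* between −0.52 and −0.62.
Over 4742 genes with several probes well above background on every array, the median of the dimmest minus the brightest probe's signal differed from WT by −0.17 and −0.13 in KO replicates 2 and 3 and by −0.18 and −0.17 in OX lines 2 and 3, a wider gap between probes than in WT. It differed by −0.03 in KO replicate 1 and −0.01 in OX line 1. Its part in the dim probes' results was not tested. Probe sequences were not used here, so reading of a close relative by a probe was not tested either.

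**Figure D3:**
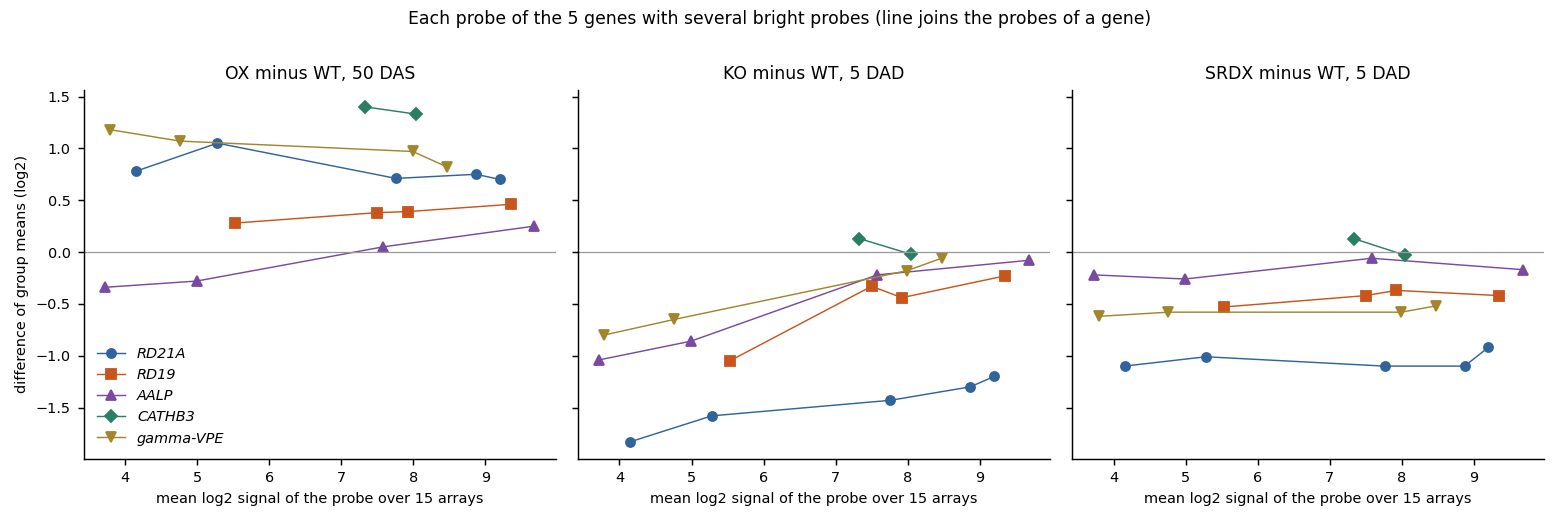
Difference of group means in log2 units (y axis) for each probe of 5 genes against the probe's mean log2 signal over the 15 arrays (x axis), in OX at 50 DAS and KO and SRDX at 5 DAD; lines join the probes of a gene. In KO the dim probes of *RD19*, *AALP* and *gamma-VPE* lie at −1.05, −1.04 and −0.80 while their brightest probes lie between −0.23 and −0.06, and under 75th percentile scaling the brightest probes of these genes turn above 0.

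Among the 26 other papain-like proteases, 18 were tested in OX and none passed the limit (5 higher and 1 lower at an unadjusted p-value of 0.05, beside 9.30 and 13.8% of all genes). At 5 DAD 21 were tested, with 7 lower and 0 higher in KO, beside 14.2 and 18.1%, and 3 lower and 0 higher in SRDX, beside 8.80 and 11.6%. The median change was −0.38 in KO, beside 0.03 over all genes, and −0.30 in SRDX, beside −0.04, and with normexp it was −0.19 and −0.06, beside 0.02 and −0.01. Under 75th percentile scaling, 2 of the list were past the limit as higher in KO, and 9 as lower, beside 14.7 and 21.6% of all genes, and 1 was higher with normexp or the deposited table.
*CEP1*, a protease with an endoplasmic reticulum retention signal that acts in tapetal cell death of anthers, had the lowest fitted change of the list in both genotypes. Its signals were −0.35, 1.12 and 0.22 in WT, −2.87, −0.95 and −2.18 in KO and −3.15, −4.61 and −5.06 in SRDX, of which 1 was well above background. *CEP1* passed the limit as lower in KO (limma, adjusted p = 0.0475) and in SRDX (adjusted p = 0.0153), and the size was not settled. In KO the log2 changes were −2.33, −1.31 with normexp and −1.17 in the deposited table. In SRDX, where most arrays were near background, they were −4.6, −1.86 with normexp and −2.86 in the deposited table. In OX it stood at 0.26, 7.50 and 7.08 against −1.55, −2.91 and −3.51 in WT, the same split between line 1 and the other lines, and did not pass the limit (adjusted p = 0.191). Its relative *CEP2* fell by 1.71 in KO (adjusted p = 0.0454), and by 0.83 with normexp. *PAP1*, a further papain-like protease, fell by 1.07 in SRDX (adjusted p = 0.0577), and by 0.49 with normexp. The vessel proteases *XCP1* and *XCP2*, which clear the contents of dying xylem cells, had lower signals in OX lines 2 and 3 than in WT, without passing the limit. *XCP1* stood at 2.47, 1.15 and −0.71 in OX against 2.33, 2.41 and 2.33 in WT, and *XCP2* at 3.44, 2.29 and 0.83 against 3.56, 3.50 and 3.19. The summed level of the 3 cellulose synthase markers of xylem vessels was 0.689 to 3.34 in OX and 2.95 to 3.85 in WT, and its part in these values was not tested. The calls of *CEP1* and *CEP2* in KO were lost without WT replicate 2 (adjusted p = 0.163 and 0.157), and that of *PAP1* in SRDX when SRDX line 3 or any 1 of the WT arrays was left out (0.160 to 0.201).

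Phytocystatins and a serpin block proteases of this kind. Of 9 listed inhibitors, 8 had a matched probe (*CYS4* had none) and 6 were tested at 5 DAD, with 2 past the limit as higher in KO, beside 18.1% of all genes, 2 in SRDX, beside 11.6%, and 0 lower in both. The medians were 0.29 and 0.40. *CYS2*, a phytocystatin, had signals of 5.62, 5.40 and 5.95 in WT, 6.95, 6.49 and 6.93 in KO and 6.65, 6.36 and 7.16 in SRDX. All 6 loss-of-function arrays were above WT, by 1.13 in KO (limma, adjusted p = 0.0290) and 1.06 in SRDX (adjusted p = 0.0450), the latter lost without WT replicate 1 or 2 (0.156 and 0.183). *SERPIN1*, a serpin that inhibits RD21A, rose by 0.54 in KO (adjusted p = 0.0426), a call lost without WT replicate 2 (0.169). *CYS3* rose by 0.56 in SRDX (adjusted p = 0.142), a call lost under 75th percentile scaling (0.168), with no filter on dim probes (0.184), with the slide as a random block (0.198) and without SRDX line 1 or 3, KO replicate 2 or 3 or a WT array (0.15 to 0.391). In OX none of 7 tested inhibitors passed the limit, and 2 were lower at an unadjusted p-value of 0.05, beside 13.8% of all genes.

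The vacuolar sorting receptors, which carry soluble cargo such as aleurain to the vacuole, did not pass the limit in any comparison. In OX all 6 tested receptors had a higher mean than WT, with a median change of 0.59, beside −0.08 over all genes, and 2 had an unadjusted p-value under 0.05, beside 9.30% of all genes that were higher. At 5 DAD the medians of the 6 were −0.11 in KO, beside 0.03 over all genes, and −0.23 in SRDX, beside −0.04. None had an unadjusted p-value under 0.05. Of all genes, 18.4% were higher and 14.4% lower at that threshold in KO, and 13.9 and 11.6% in SRDX.
Of 6 other vacuolar proteases, 2 passed the limit as lower in each of KO and SRDX, beside 14.2 and 8.80% of all genes, and 4 in KO under 75th percentile scaling, beside 21.6%. The 2 genes were *APA3*, a vacuolar aspartic protease, and *SCPL48*, a serine carboxypeptidase-like protein. *APA3* stood at 1.91, 2.0 and 1.78 in WT, 0.20, 0.48 and −0.08 in KO and −0.07, 0.48 and −0.36 in SRDX. It fell by 1.70 in KO and by 1.88 in SRDX (limma, adjusted p = 0.0137 and 0.0134), and in the deposited table by 0.71 and 0.79. In OX it stood at 1.29, 9.63 and 9.30 against 0.92, 0.36 and 0.44 in WT, so lines 2 and 3 were far above WT and line 1 slightly above it, and the change of 6.17 did not pass the limit (adjusted p = 0.202). *SCPL48* fell by 0.94 in KO and by 1.03 in SRDX (adjusted p = 0.0389 and 0.0416). The call of *SCPL48* in SRDX was lost without WT replicate 2 (0.155). In SRDX against KO, no gene of the 4 lists passed the limit. Without SRDX line 3 *CEP2* was 1.26 higher in SRDX (adjusted p = 0.0386), and without KO replicate 1 *CEP1* passed as lower (adjusted p = 0.0975), with 1 of 3 SRDX arrays well above background.

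**Figure D4:**
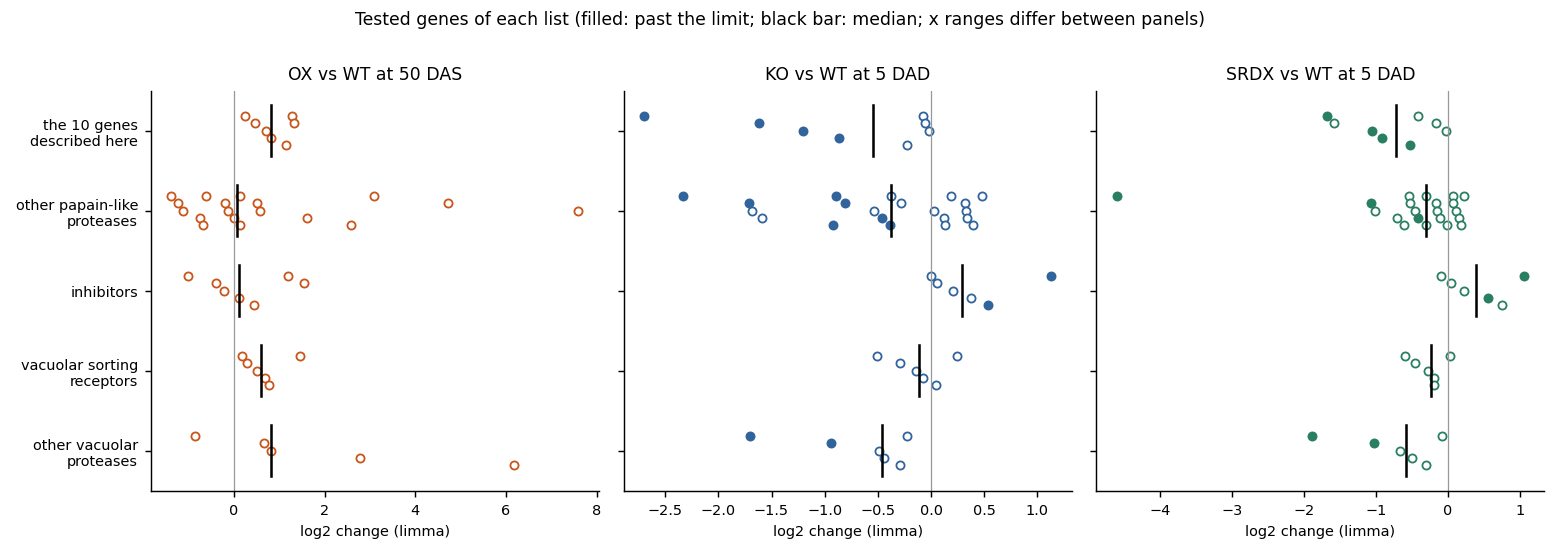
Log2 change from WT (x axes, own range in each panel) of every tested gene of the 10 genes described here and of 4 related lists (rows) in OX, KO and SRDX; filled points passed the limit and black bars are medians. Medians of the described genes were 0.82 in OX, −0.55 in KO and −0.72 in SRDX, and those of the inhibitors were 0.29 in KO and 0.40 in SRDX. Under 75th percentile scaling 4 of the described genes lay above 0 in KO, none of them past the limit. Of the other papain-like proteases, 2 were past the limit as higher in KO with that scaling.

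Across the 5 groups, the members fell into different orders. The WT groups of the experiments differ in tissue, growth, age, light and scan day together, so their levels are set side by side without a test. *SAG12*, *RD21A*, *RD21B*, *RD19*, *AALP*, *CATHB3* and *alpha-VPE* all had a higher mean in WT at 5 DAD than in WT at 50 DAS, by log2 means such as 8.61 against 6.55 for *CATHB3* and −0.29 against −2.50 for *alpha-VPE*. *gamma-VPE* stood at 8.36 ± 0.09 against 8.53 ± 0.23 (SD, n = 3), and these arrays overlapped. *beta-VPE* went the other way, with −3.76 ± 0.52 at 5 DAD and 0.26 ± 0.78 at 50 DAS (SD, n = 3), a gap of 4.02 without overlap. For *SAG12*, the order from high to low was OX, WT at 5 DAD, SRDX, KO and WT at 50 DAS, and only the last pair of neighbours did not overlap. For *RD21B* it was WT at 5 DAD, OX, KO, SRDX and WT at 50 DAS, and again only the last pair did not overlap. For *alpha-VPE*, OX and WT at 5 DAD overlapped, WT at 5 DAD and KO did not, and the lower groups overlapped with each other. For *RD21A*, *RD19*, *AALP*, *CATHB3* and *gamma-VPE*, every pair of neighbours overlapped.

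The genes whose pattern over the 15 arrays was most like that of 2 members were sought among 16798 loci. The points share slides and genotypes, so Pearson's r is given as a description. For *SAG12* these were *PYD4* (AT3G08860, r = 0.929), AT5G18320 (r = 0.925) and AT4G27480 (r = 0.917). For *gamma-VPE* they were AT4G19670 (r = 0.948), AT5G58120 (r = 0.941) and AT1G10310 (r = 0.932). Among the members themselves, r over the 15 arrays was 0.911 for *AALP* and *CATHB3*, 0.841 for *RD21A* and *alpha-VPE* and −0.662 for *AALP* and *beta-VPE*. In the 6 arrays at 50 DAS *AALP* and *beta-VPE* had r = 0.958, and in the 9 arrays at 5 DAD r was 0.337.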

How the data were processed

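Expression was measured in 15 one-color arrays, grouped by the genotype and time in GEO's labels. The authors deposited spot intensities from Agilent Feature Extraction (11.5.1.1 in the file headers, 9.1.3.1 in the submitters' notes), background-subtracted and not scaled between arrays, with quality flags per spot. A deposited table holds natural log values that the authors had divided by the array median and quantile normalized with further arrays. Its base was settled against the scanner signals, and it was an alternative only.

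Spots with outlier flags were left out, intensities were divided by the array median and quantile normalized over the 15 arrays, and log2 was taken. Accessions gave a locus for 34348 of 43603 probes (table of TAIR10.1, names only), and the other 9255 probes count as genes of their own. Arrays at 50 DAS and 5 DAD had a fit each, over 20635 and 25449 genes, in limma 3.58.1 (R 4.3.3) with Benjamini-Hochberg adjustment. The fit was tested on simulated data. Plots used matplotlib 3.10.9 in Python 3.11.15. The number of arrays limits the precision, and an exact permutation test of 3 against 3 cannot give a p-value under 0.1, so none was used.

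The members and gene lists were chosen with earlier results of these data known. Genes named from the lists were, per comparison, the 2 that rose most and the 2 that fell most of those past the limit whose arrays did not overlap with the reference. Genes outside that rule (*XCP1*, *XCP2* and those of the closing observations) were chosen after their values were seen. Likeness was Pearson's r over loci well above background on at least 12 arrays. The alternatives were 75th percentile scaling, quantile normalization per experiment, normexp with an offset of 50 on median signals, the authors' table, no filter and a stricter filter on dim probes, outlier spots kept, the mean of a gene's probes, Storey's q-values, a limit of 0.05, a joint fit of both experiments, replicate or slide as a block, and each array left out. The dimmest probe was added after seeing the data.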

Additional observations from a re-analysis of the deposited data

How the results depend on the processing

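The number of members past the limit in OX was 0. It became 6 with Storey's q-values, beside 24.7% of all genes higher, and 3 in 1 fit of all 15 arrays. It was 0 to 9 with an array left out, 9 being without OX line 1, beside 25.8% of all genes higher. In that fit *SAG12* and *alpha-VPE* entered the test through the OX arrays alone. In KO the count of 4 became 2 with a limit of 0.05, 2 in 1 fit of all 15 arrays, 2 with the slide as a random block, 7 with the dimmest probe (chosen after seeing the data) and 2 to 4 with an array left out. The gap between the dimmest and brightest probe over all genes compared was also wider than in WT in KO replicates 2 and 3 (−0.17 and −0.13). In SRDX the count of 4 became 5 with Storey's q-values, where *RD19* was added, beside 17% of all genes lower. It became 1 with a limit of 0.05, 2 under 75th percentile scaling and 2 in 1 fit of all 15 arrays. With an array left out it was 0 to 5, 0 being without WT replicate 2 and 1 without WT replicate 1 or 3 or SRDX line 3. Over the alternatives, arrays left out aside, *RD19* gained a call in SRDX under 3. In KO, *RD19* and *AALP* gained one under 2 each and *gamma-VPE* under 1. For SRDX against KO it was 0 in every fit run. Beyond those printed, shares of all genes under these settings are not given, so the counts describe these members alone. Correlations of same-numbered deviations ran from −0.32 for WT and KO replicate 1 to 0.796 for KO and SRDX replicate 2. Likeness by replicate number was therefore not uniform, and shared handling was not tested. With the replicate block the counts were 0 in OX, 4 in KO, 4 in SRDX and 0 in SRDX against KO. A slide block could not be fitted at 50 DAS, where each group filled a slide.

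Signs turned for *AALP* in OX (−0.08 with the mean of probes, −0.34 with the dimmest). In KO under 75th percentile scaling they turned for *RD19* (0.06), *AALP* (0.2), *CATHB3* (0.24) and *gamma-VPE* (0.14). For *CATHB3* they turned with normexp, the mean of probes and the dimmest probe in KO (0.01, 0.06 and 0.13) and, with 75th percentile scaling first, in SRDX (0.16, 0.04, 0.05 and 0.13). In SRDX against KO they turned for *alpha-VPE* under 75th percentile scaling (0.27), *CATHB3* with normexp (0.03), *RD19* and *AALP* with the mean of probes (0.08 and 0.37) and *RD19*, *AALP* and *gamma-VPE* with the dimmest probe (0.52, 0.82 and 0.18). With an array left out, values crossed 0 in KO for *AALP* (−0.14 to 0.03), *CATHB3* (−0.06 to 0.03) and *gamma-VPE* (−0.17 to 0.05), in SRDX for *CATHB3* (−0.06 to 0.03), and in SRDX against KO for *CATHB3* (−0.04 to 0.02), *RD21B* (−0.55 to 0.01) and *alpha-VPE* (−0.28 to 0.27). None of these values was past the limit in the reported fit, and the causes were not tested. Of 433 values of single members under the other alternatives, 372 kept direction and side of the limit. With an array left out, 216 of 263 did. These totals include the values in OX and in SRDX against KO, where no member was past the limit, so they say little about the calls. Of the named list genes, *APA3*, *CYS2* and *SCPL48* in KO and SRDX, *CEP1* and *CEP2* in KO and *PAP1* in SRDX lost their calls in 1 fit of all 15 arrays (adjusted p = 0.183 to 0.514). *SAG12*, *alpha-VPE*, *beta-VPE* and *delta-VPE* lay near background in some groups, which limits what their signals can show.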

Other observations

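*CYS7* (AT5G05110), a phytocystatin, followed *CATHB3* most closely of the 16798 loci compared, with r = 0.994 over the 15 arrays, a pair chosen after the values were seen. *CYS7* stood at 4.96, 4.75 and 5.09 in WT and 4.85, 6.66 and 6.83 in OX at 50 DAS. At 5 DAD it stood at 6.84, 7.03 and 7.03 in WT, 6.99, 7.02 and 7.09 in KO and 6.84, 6.82 and 6.94 in SRDX. Both genes thus had OX line 1 among the WT arrays, lines 2 and 3 above them, and little spread at 5 DAD. Of the other members, *AALP* had its relative *RD19B* among its 3 most alike loci (r = 0.96), and *alpha-VPE* had a glutamine synthetase gene (AT5G37600, r = 0.932) and the metacaspase gene *MC9* (AT5G04200, r = 0.926). The arrays share slides and genotypes, and no p-value is given.

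Further papain-like proteases past the limit in KO were *RDL5* (−0.81), *XBCP3* (−0.46), *THI1* (−0.92), *PAP1* (−0.89) and *RD19B* (−0.39), with limma adjusted p-values of 0.06 to 0.143. *THI1* was well above background on 5 of the 15 arrays. Its signals were −3.23, −3.25 and −2.75 in WT and −4.52, −4.14 and −3.34 in KO. It entered the test at 5 DAD through WT, where its mean was highest, so its call as lower came through that group. *RD19B* was also past it in SRDX (−0.41, adjusted p = 0.135).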
